A study of Mus musculus with 59 samples.

Results

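Interferons are secreted proteins that warn cells of infection. Type I interferons bind the receptor formed by Ifnar1 and Ifnar2 and act through a complex that holds Stat2 and Irf9 and binds the interferon-stimulated response element (ISRE) in front of its target genes. Interferon gamma binds a separate receptor and acts on the gamma-activated site (GAS), inducing genes of antigen presentation and GTPases that attack vacuoles of intracellular pathogens. In muscle and liver these genes are transcribed both by the parenchymal cells and by immune cells that enter or reside in the tissue.

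The genes described here were 45 interferon response genes, taken by symbol from the 24972 genes of each of 4 expression tables, and all 45 were found in every table. Of these, 32 are known as type I induced genes and 13 as gamma induced genes. By role they comprised 4 transcription factors (Stat2, Irf1, Irf7, Irf9), 4 RNA and DNA sensors (Ifih1, Ddx58, Dhx58, Zbp1), 13 antiviral effectors (Ifit1, Ifit2, Ifit3, Mx1, Mx2, Oas1a, Oas2, Oas3, Oasl1, Oasl2, Rsad2, Bst2, Ifitm3), 5 genes of the ISG15 and ubiquitin pathway (Isg15, Usp18, Herc6, Trim25, Dtx3l), 7 other type I induced genes (Rtp4, Ifi35, Ifi44, Ifi27, Xaf1, Parp9, Parp14), 6 genes of class I antigen processing (Psmb8, Psmb9, Psmb10, Tap1, Tap2, Tapbp) and 6 gamma induced GTPases (Gbp2, Gbp3, Gbp6, Gbp7, Igtp, Irgm1). They were read in 59 RNA-seq libraries of 17 groups from a study of inhibitors of ATP citrate lyase (ACLY), the enzyme that makes cytosolic acetyl coenzyme A from citrate.

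In the AML12 table, cells of this mouse hepatocyte line carried siRNA against Acly (siAcly) or a control siRNA (siC) and received 1 mM potassium hydroxycitrate (HC), 10 µM SB-204990 (SB), 30 µM bempedoic acid (Bemp) or no compound (Ut) for 16 h, with 3 libraries in each of 8 groups. Liver and soleus came from male C57BL/6 mice that ate a standard diet with 7.5 g of HC per kg (HC) or without it (Ut) between 20 and 41 weeks of age and were fasted for 16 h, with 5 libraries a group. Gastrocnemius came from male C57BL/6 mice of about 6 months, injected with 10 µM cardiotoxin, a toxin that kills muscle fibres, and fed the HC diet afterwards (CTX-HC) or the plain diet (CTX), taken 2 or 30 days post injury (DPI), or not injected (C), with 3 libraries a group. All mice were wild type, and tissues were sequenced whole, so that fewer cells of a type and less RNA per cell cannot be told apart.

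Values are the authors' normalised counts, and estimated depth ran between 7.31 and 16.3 M reads in AML12 cells, between 7.69 and 13.1 M in liver, between 8.93 and 11.2 M in soleus and between 16.0 and 34.9 M in gastrocnemius. Acly was 215 to 599 in the siAcly libraries and 2576 to 3860 in 11 of the 12 siC libraries, while the library labelled siC Bemp 11 had 404, inside the siAcly range. Hepatocyte markers summed to 798388 to 1209379 in liver and 13030 to 50426 in AML12 cells, where Cyp2e1 was at 0 in 20 of 24 libraries. In gastrocnemius the library labelled CTX 2 DPI 57 had the lowest macrophage marker sum of its group, at 2283 against 11608 in the highest, and the library labelled CTX-HC 30 DPI 62 had the highest of its group, at 7623 against 949 in the lowest. Values without these libraries are given where they were computed. The labels do not say whether AML12 libraries of a group are separate cultures, so p-values there measure the spread between libraries, which may be technical.

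Promoter sequences are given for some members named below, called or not, because both interferon pathways act through short elements there. RefSeq promoter windows of 250 bases before to 50 after the gene start (GRCm38.p6) were at hand for 33 of the 45 members. Windows were searched on both strands for an ISRE core (GAAA, then 2 bases of any kind, then GAAA) and for a GAS, TTCNNNGAA. The ISRE core was found in 16 of 33 members (48.5%), namely 11 of 22 type I and 5 of 11 gamma induced members, against 3.99% of 27025 gene symbols with a window. The GAS was found in 9 of 33 members (27.3%), 5 type I and 4 gamma induced, against 9.55% of all symbols. Windows of Oasl1, Oasl2 and Trim25 held neither string, and Mx1, Oas2, Usp18 and Gbp6 were among the 12 members without a window. The following stretches of 60 bases are written 5′ to 3′ on the strand of the gene, with the motif named for each gene in capitals. Oas3 (2′-5′-oligoadenylate synthetase, chr5:120777700-120777759, - strand), Oas1a (chr5:120907505-120907564, - strand), Isg15 (a ubiquitin-like modifier, chr4:156200856-156200915, - strand) and Igtp (an immunity-related GTPase, chr11:58199497-58199556, + strand) show the ISRE core, which overlaps itself in Oas1a and Isg15. Irf1 (chr11:53769898-53769957, + strand) and Psmb8 (an immunoproteasome subunit, chr17:34198072-34198131, + strand) show the GAS. The Igtp stretch also holds a GAS, beginning at base -45 from the gene start and left in lower case.
Oas3: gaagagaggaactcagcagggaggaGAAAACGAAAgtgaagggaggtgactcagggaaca
Oas1a: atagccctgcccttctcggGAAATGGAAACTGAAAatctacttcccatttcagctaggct
Isg15: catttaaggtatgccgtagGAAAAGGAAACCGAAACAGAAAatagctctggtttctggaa
Igtp: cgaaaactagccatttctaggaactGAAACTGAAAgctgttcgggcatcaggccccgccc
Irf1: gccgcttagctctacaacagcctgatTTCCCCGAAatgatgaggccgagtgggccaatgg
Psmb8: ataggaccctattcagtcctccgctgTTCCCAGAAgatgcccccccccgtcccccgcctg

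The interferon genes themselves were almost undetected. All 10 ligand genes examined (Ifnb1, Ifna1, Ifna2, Ifna4, Ifna5, Ifng, Ifnl2, Ifnl3, Ifne, Ifnk) were listed at 0 in all 24 AML12 and all 10 soleus libraries. Ifng reached 1.2 in liver, with 7 of 10 libraries at 0, and 2.94 in gastrocnemius, with 9 of 15 libraries at 0. None of the 10 passed the limit for testing, a value of 10 in as many libraries as the smallest group of a table holds. The receptors of type I interferon and interferon gamma were present in every AML12 and gastrocnemius library. Ifnar1 was between 608 and 1035 and Ifngr1 between 2065 and 3151 in AML12 cells. In gastrocnemius Ifnar1 was between 295 and 1357 and Ifngr1 between 292 and 890.4. Ifnlr1, a receptor chain for interferon lambda, had a median of 2.56 in gastrocnemius, with 6 of 15 libraries at 0. These levels are normalised counts, not divided by transcript length, so they do not rank genes against each other by number of transcripts. Where members are called abundant below, only a high mean count in that table is meant.

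Of the members, 45 passed the limit in gastrocnemius, 44 in liver (not Oas3), 43 in AML12 cells (not Oas2 and Ifi44) and 37 in soleus (not Dhx58, Zbp1, Mx1, Mx2, Oas1a, Oas3, Oasl1 and Ifi44). Differences are given on the log2(value + 1) scale and were tested with limma over all tested genes of a table, with Benjamini-Hochberg adjusted p under 0.05 as the limit for a call. Adding 1 makes the differences of genes with low values smaller. Several members (Oas1a, Ifit1, Ifit3, Gbp2, Gbp3, Gbp6 and Gbp7 among them) have close paralogs, between which reads can be split, so their values are uncertain to that extent.

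Most members had higher values in injured muscle of HC-fed mice at 2 DPI than in uninjured muscle. In CTX-HC 2 DPI against C, 40 of 45 members were higher and 5 lower, with a median log2 difference of 1.46 over the members and 0.02 over all 14033 genes tested. Of the 45, 5 rose and 0 fell, while 5.34% of all tested genes rose. These were 4 enzymes or relatives of the 2′-5′-oligoadenylate synthetase family (Oas2, Oas3, Oasl1, Oasl2), which detect double-stranded RNA and activate RNase L or related defences, and Trim25, the ubiquitin ligase that activates the sensor RIG-I. At an unadjusted p under 0.05 there were 28 members, 27 higher and 1 lower, beside 35.9% of all genes.

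Oas3 was 344, 227 and 363 in CTX-HC 2 DPI muscle, against 10.3, 3.94 and 14.6 in C muscle. The groups lay far apart, and Oas3 rose by 5.0 (SE 1.31, adjusted p = 0.0369, limma). Oas2 was 446, 328 and 747 in CTX-HC 2 DPI muscle, against 60.6, 34.1 and 121 in C muscle, a rise of 2.90 (SE 0.71, adjusted p = 0.0311) without overlap. For Oasl1 the values were 135, 123 and 229 in CTX-HC 2 DPI muscle, against 10.2, 5.45 and 26.6 in C muscle. Oasl1 rose by 3.64 (SE 0.94, adjusted p = 0.0359), and library 53 was the highest of the C libraries. Oasl2, with 515, 378 and 683 in CTX-HC 2 DPI muscle, against 29.6, 23.3 and 160.2 in C muscle, rose by 3.37 (SE 0.91, adjusted p = 0.0402). Trim25 was 1375, 1231 and 958 in CTX-HC 2 DPI muscle, against 552, 404 and 617 in C muscle. Its groups did not overlap either, and it rose by 1.18 (SE 0.35, adjusted p = 0.0482).

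**Figure D1:**
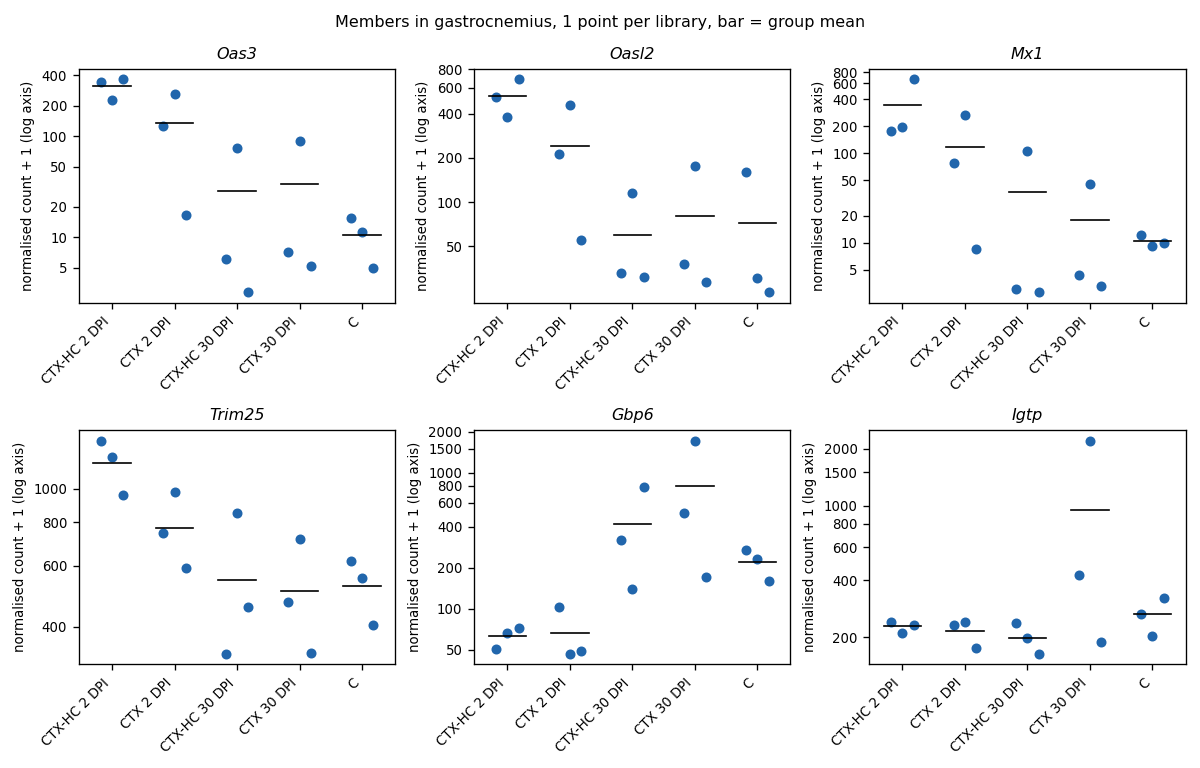
Normalised counts plus 1 (log axis, bar for the group mean) of Oas3, Oasl2, Mx1, Trim25, Gbp6 and Igtp in the 15 gastrocnemius libraries, 1 point per library, by group. Oas3 was 227 to 363 in the CTX-HC 2 DPI libraries and 3.94 to 14.6 in the C libraries, and library 51 of CTX 30 DPI had 2212 of Igtp.

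Other members had wide gaps but missed the limit. Mx1, a GTPase that blocks viral replication, was 174, 193 and 660.1 in CTX-HC 2 DPI muscle, against 8.20, 8.86 and 11.3 in C muscle (log2 difference 4.77, adjusted p = 0.0547). Among transcription factors, Stat2 was 605, 496 and 793 in CTX-HC 2 DPI muscle, against 182, 167 and 227 in C muscle (1.70, adjusted p = 0.0756). Irf7, the factor that amplifies type I interferon production, was 360, 199 and 504 in CTX-HC 2 DPI muscle, against 40.3, 30.9 and 156 in C muscle (2.49, adjusted p = 0.0909). Neither of these genes overlapped between the groups. By role, all 13 antiviral effectors, all 4 sensors, all 4 transcription factors, all 5 members of the ISG15 and ubiquitin pathway and all 6 of class I antigen processing were higher, with medians of 2.21, 2.31, 1.45, 1.18 and 1.41. The gamma induced GTPases were split, 2 higher and 4 lower with a median of -0.10, and Gbp6 was 49.2, 65.5 and 70.7 in CTX-HC 2 DPI muscle, against 231, 158 and 267 in C muscle (-1.79, adjusted p = 0.101).

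The count of called members moved with single libraries. It was 0 without CTX-HC 2 DPI library 58 or 59 or C library 54 or C replicate 2, 2 without C library 53 and 4 without CTX-HC 2 DPI library 60, and a covariate for the numbering of libraries (C replicate 2 and CTX 30 DPI replicate 2 against all others) gave 0, and a fit of only these 2 groups gave 34 (32 higher and 2 lower, beside 17.3% of all genes higher and 15% lower). Without CTX 2 DPI library 57 and CTX-HC 30 DPI library 62, which belong to neither group compared but enter the shared estimate of spread, 21 members rose and 0 fell, beside 16.3% of all genes that rose. This alternative was chosen after seeing the data. The 16 further genes included Mx1 (adjusted p = 0.00619), Dhx58 (0.00675), Stat2 (0.0144) and Irf7 (0.0483).

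In CTX 2 DPI against C, which tests injury without HC, no member and no other gene of the 14033 tested was called. Of 45 members, 37 were higher and 8 lower (median 0.55), and 0 passed the adjusted limit of limma. At an unadjusted p under 0.05 there were 4 members, 2 in each direction, beside 14.9% of all tested genes. All 13 antiviral effectors were higher (median 0.87), and all 6 gamma induced GTPases were lower (median -0.42). Oas3 was 125, 258 and 15.6 in CTX 2 DPI muscle, against the C values above (3.09, adjusted p = 0.315). Gbp6 was 101.4, 45.8 and 47.8 in CTX 2 DPI muscle, all below the C libraries (-1.80, adjusted p = 0.311). The most abundant members, Tapbp (0.63), Parp14 (0.43) and Trim25 (0.55), had adjusted p-values of 0.36, 0.745 and 0.446. Library 57 was the lowest of its group in 42 of 45 members, and without libraries 57 and 62 the median was 0.88, with 0 members called and 14 at an unadjusted p under 0.05, beside 26.7% of all genes. Without library 56 the median was 0.14.

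The comparison of HC with plain diet at 2 DPI (CTX-HC 2 DPI against CTX 2 DPI) shares its CTX-HC libraries with the first comparison and its CTX libraries with the second. In it, 43 of 45 members were higher and 2 lower (median 0.91). No member and no other tested gene passed the adjusted limit of limma. There was 1 member, Ifih1, with an unadjusted p under 0.05 (0.91, adjusted p = 0.662), beside 7.16% of all tested genes. Parp14 was 1363, 1066 and 1322 in CTX-HC 2 DPI muscle, against 628, 1150 and 277 in CTX 2 DPI muscle (1.09, adjusted p = 0.662), and Trim25 was 742, 979.5 and 590.2 in CTX 2 DPI muscle (0.64, adjusted p = 0.662). Tapbp differed by 0.32 (adjusted p = 0.739) and Irf7 by 1.54 (adjusted p = 0.663). The values of CTX 2 DPI library 56 lay close to those of the CTX-HC libraries for most of these genes, and library 57 lay near C. Without libraries 57 and 62 the median was 0.47, with 41 members higher and 0 called.

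**Figure D2:**
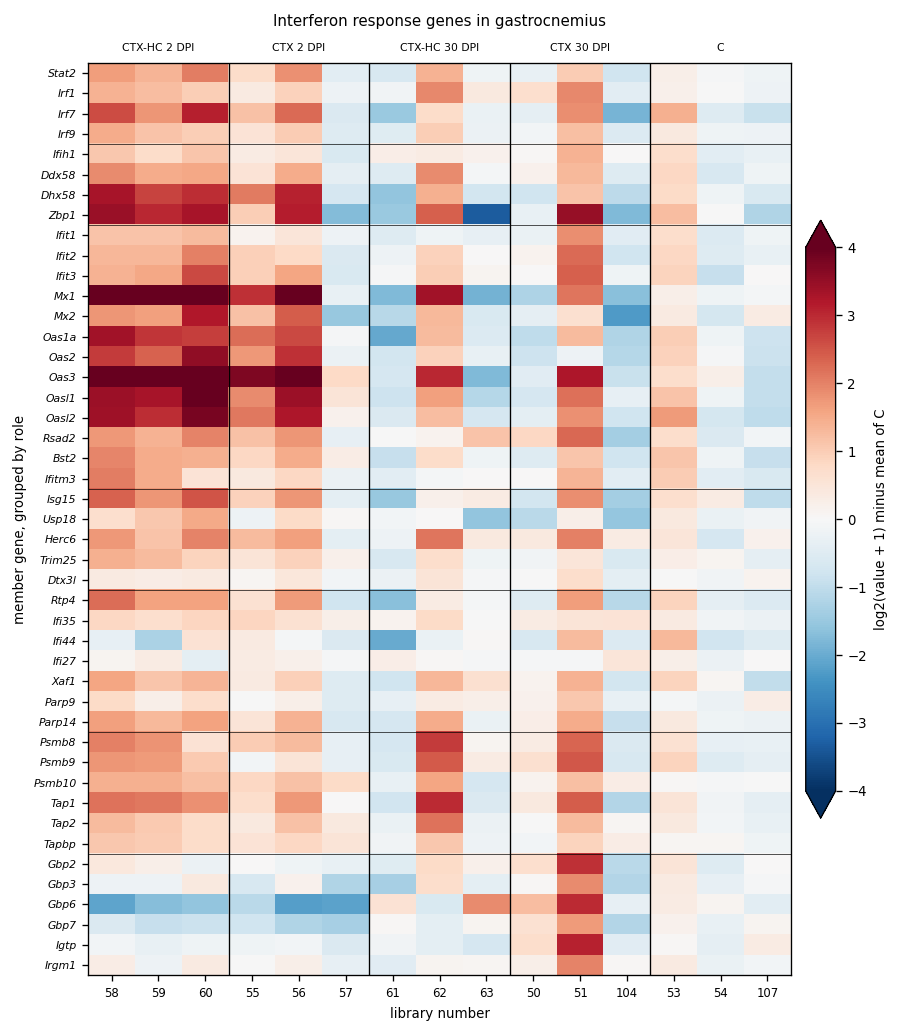
Heat map of the 45 members by role (down) in the 15 gastrocnemius libraries (across, by group and library number), as log2(value + 1) minus the mean of the C libraries, with colours clipped at ±4. The 3 CTX-HC 2 DPI libraries had medians of 1.31 to 1.57 over the members, library 57 of CTX 2 DPI -0.34, library 62 of CTX-HC 30 DPI 0.93 and library 51 of CTX 30 DPI 1.66.

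Macrophage and neutrophil marker sums were higher in the CTX-HC 2 DPI group than in C muscle. Library by library, the macrophage sum ran with the median of the members in some cases and not in others. CTX 2 DPI library 57 was the lowest of its group in both (2283 and -0.34). CTX 30 DPI library 51 was the highest of its group in both (6409 and 1.66). CTX-HC 2 DPI library 60 had a macrophage sum of 7222, below CTX 2 DPI libraries 55 (11608) and 56 (8940). Its median over the members was 1.36, against 0.56 and 1.17 in those libraries. B and plasma cell markers summed to 12.2 to 21.6 in CTX-HC 2 DPI and 19.8 to 24.9 in C muscle. The sum of 10 macrophage markers, all detected in every gastrocnemius library, was 7222 to 30755 in CTX-HC 2 DPI, 2283 to 11608 in CTX 2 DPI and 986 to 4146 in C muscle. Of these markers, 4 rose in CTX-HC 2 DPI against C (Fcgr1, Ccr2, Cd68 and Cd14), with a list median of 2.94. The neutrophil marker sum was 325 to 1196 in CTX-HC 2 DPI, 26.4 to 389 in CTX 2 DPI and 8.17 to 42.5 in C muscle, with 3 to 6 of 8 markers detected in the CTX-HC libraries. Csf3r alone reached 1010.5 in gastrocnemius. The other markers of that list stayed lower, with highest values of 112 for Mmp8, 41.4 for S100a9 and 27.95 for S100a8. Ly6g and Camp were at 0 in 14 of 15 libraries. Sums of fast fibre markers were lowest in CTX-HC 2 DPI muscle, at 1221729.5 to 1969215, against 3356753 to 4592192 in C muscle. The part of infiltrating cells in the differences of the members was not tested.

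Genes of the pathway outside the members were counted in CTX-HC 2 DPI against C. The share of all genes that rose was 5.34%, as above. Of 11 receptors and kinases, 3 rose, including Il10rb (2.36, adjusted p = 0.0427), a shared chain of the receptors of interferon lambda and interleukin 10, and Ifnar1 (1.27, adjusted p = 0.0450). Of 17 sensors and adaptors tested, Myd88, the adaptor of Toll-like receptors, rose (1.89, adjusted p = 0.0247). Of 13 negative regulators, the DNA exonuclease Trex1 rose (0.88, adjusted p = 0.0429), and of 12 genes of MHC class I, the chaperones Pdia3 (1.59, adjusted p = 0.0377) and Calr (1.19, adjusted p = 0.00686) rose. Of 61 other interferon induced genes tested, 6 rose, led by Oas1g (4.08, adjusted p = 0.0332) and Slfn2 (3.26, adjusted p = 0.0480). None of these lists had a gene that fell, and their medians were 0.85, 1.75, 0.63, 1.28 and 1.35, beside 0.02 over all genes. With each of the 6 libraries left out in turn, Calr was called in 6 of 6 fits, Myd88 and Oas1g in 2, Il10rb, Ifnar1, Trex1, Pdia3 and each of the 4 macrophage markers in 1, and Slfn2 in 0.

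At 30 DPI no member and no other gene was called, against C or between the diets. The median difference of the members from the C mean was -0.02, 1.66 and -0.64 in the CTX 30 DPI libraries and -0.17, -0.52 and 0.93 in the CTX-HC 30 DPI libraries, against -0.23 to 0.51 in the C libraries, so that 2 of the 6 injured libraries lay inside the range of C. In CTX 30 DPI against C, 34 members were higher and 11 lower (median 0.33), and 0 had an unadjusted p under 0.05, beside 3.11% of all genes. In CTX-HC 30 DPI against C, 24 were higher and 21 lower (median 0.09), again with 0 at an unadjusted p under 0.05, beside 2.76%. In both comparisons, which share the C libraries, Tapbp (0.36 and 0.24), Parp14 (0.28 and 0.18) and Trim25 (-0.10 and -0.03) had adjusted p-values near 1. In CTX-HC 30 DPI against CTX 30 DPI, 10 members were higher and 35 lower (median -0.15), with 0 called by limma and 1 at an unadjusted p under 0.05, beside 0.755% of all genes. Tapbp (-0.12), Parp14 (-0.10) and Trim25 (0.06) were within 1 SE of no difference there. The direction of these medians turned with single libraries. Without library 51, 11 members were higher and 34 lower in CTX 30 DPI than in C muscle (median -0.33), and 39 were higher and 6 lower in CTX-HC 30 DPI than in CTX 30 DPI muscle (median 0.43). Leaving out each library in turn gave medians of -0.40 to 0.35 for CTX-HC 30 DPI against C.

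Within the 30 DPI groups, 1 library of each stood apart. Library 51 of CTX 30 DPI was the highest of its group in 43 of 45 members and the highest of the table in 15, and it was the highest of the 15 libraries for all 6 gamma induced GTPases. Igtp was 2212, 188 and 425 in CTX 30 DPI muscle, against 203, 322 and 265 in C muscle (1.12, adjusted p = 1), and it was 162, 235 and 196 in CTX-HC 30 DPI muscle, the 1 member at an unadjusted p under 0.05 against CTX 30 DPI (-1.52, adjusted p = 1). Gbp2, a guanylate-binding protein, was 827, 51 and 173 in CTX 30 DPI muscle, against 74.8, 109.6 and 155 in C muscle, and its difference was 0.84 with library 51 and -0.20 without it. Without library 51 the difference of Igtp from C was 0.13, and that of CTX-HC 30 DPI from CTX 30 DPI was -0.53. In that library markers of T and NK cells summed to 224 and of B and plasma cells to 495, against 19.9 in the lowest CTX 30 DPI library for the B and plasma list.

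Library 62 of CTX-HC 30 DPI was the highest of its group in 37 members, with a pattern of its own. Tap1, the peptide transporter of antigen processing, was 70.1, 61.6 and 839 and Psmb8 was 64.3, 36.9 and 416 in the libraries 63, 61 and 62, so that library 62 exceeded every other gastrocnemius library for both genes. Among the GTPases, Gbp6 was 787, 319 and 139 in the same order. Markers of B and plasma cells summed to 3394 and of T and NK cells to 1886 in library 62, against 20.8 and 6.33 in the lowest libraries of its group. Without libraries 57 and 62, 9 members were higher and 36 lower in CTX-HC 30 DPI than in C muscle (median -0.40), with 0 called, and 1 was higher and 44 lower in CTX-HC 30 DPI than in CTX 30 DPI muscle (median -0.69), with 0 called and 3 at an unadjusted p under 0.05, beside 1.23% of all genes. The part of these immune cells in the values was not tested.

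The times were compared within each diet. HC feeding began after the injection, so CTX-HC mice had eaten HC for 2 days at 2 DPI and for 30 days at 30 DPI. Time after injury and length of HC feeding therefore cannot be told apart in CTX-HC muscle, nor in the HC effect compared between the times. In CTX-HC 30 DPI against CTX-HC 2 DPI, 4 members were higher and 41 lower (median -1.22, against 0.01 over all genes), and 7 fell, beside 5.54% of all genes that fell. The 5 largest falls were Oas3 (-4.80, adjusted p = 0.0398), Oasl1 (-3.75, 0.0320), Oas1a (-3.43, 0.0360), Oasl2 (-3.38, 0.0386) and Dhx58 (-3.28, 0.0459), followed by Oas2 (-2.94, 0.0266) and Trim25 (-1.22, 0.0450). Oas3 was 1.83, 5.05 and 75.8 in CTX-HC 30 DPI muscle, where library 62 was the highest, against 344, 227 and 363 in CTX-HC 2 DPI muscle. Dhx58, a regulator of RIG-I-like sensors, was 11.9, 6.08 and 56.6 in CTX-HC 30 DPI muscle, against 210.0, 137 and 164 in CTX-HC 2 DPI muscle. Neither gene overlapped between the times. Gbp6 ran the other way, with each CTX-HC 30 DPI library above each CTX-HC 2 DPI library (2.40, adjusted p = 0.0519).

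This count also turned on single libraries, being 0 without library 58, 59, 61 or 63, 3 without library 60, 26 without library 62 and 0 when only these 2 groups were fitted. Without libraries 57 and 62, 25 members fell and 1 (Gbp6, 3.02, adjusted p = 0.0105) rose, beside 19.7% of all genes that fell and 17.5% that rose.

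In CTX 30 DPI against CTX 2 DPI, 17 members were higher and 28 lower (median -0.16). Of the members 0 were called by limma, beside 6 genes that rose and 30 that fell of all 14033. At an unadjusted p under 0.05 there were 4 members, beside 21.1% of all genes. Those were Gbp6 (3.10, adjusted p = 0.0821), Gbp7 (1.5, 0.148), Igtp (1.40, 0.215) and Oas2 (-2.18, 0.142). Tapbp (-0.26), Parp14 (-0.15) and Trim25 (-0.64) had adjusted p-values of 0.643, 0.916 and 0.295. Gbp6 was 1713, 170.1 and 499 in CTX 30 DPI muscle, each above the CTX 2 DPI values of 101.4, 45.8 and 47.8. Without libraries 57 and 62, Gbp6 rose (2.93, adjusted p = 0.0412) and Mx1 (-4.06), Oas2 (-3.04), Dhx58 (-2.81) and Oas1a (-2.75) fell, beside 3.31% of all genes that rose and 4.89% that fell, and leaving out CTX 30 DPI replicate 2 alone gave 3 called members. The median over the members ran between -0.72 (without library 51) and 0.21 (without CTX 30 DPI replicate 2). The effect of HC at 30 DPI minus that at 2 DPI was negative for 44 of 45 members (median -1.0), and no member and no other tested gene passed the adjusted limit of limma. At an unadjusted p under 0.05 there was 1 member, Ifit1 (-1.78, adjusted p = 0.999), beside 2.53% of all genes. The median was -1.20 without libraries 57 and 62 (43 of 45 negative), -0.67 without library 57, -1.56 without library 62 and -0.44 without library 51 (38 of 45 negative). Tapbp (-0.43), Parp14 (-1.18) and Trim25 (-0.57) had adjusted p-values of 0.999.

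In AML12 cells, Acly siRNA went with higher values of a few type I induced genes. Over the 4 treatments, 29 of 43 tested members were higher in siAcly than in siC cells and 14 lower, with a median of 0.14 (0.22 for type I and 0.11 for gamma induced members, -0.01 over all 12296 genes). Of the 43, 3 rose and 0 fell, beside 2.73% of all genes that rose. They were Usp18, the protease that removes Isg15 from proteins and restrains the type I receptor, and Oasl1 and Oasl2, relatives of the 2′-5′-oligoadenylate synthetases. At an unadjusted p under 0.05 there were 14 members, 11 higher and 3 lower, beside 22.4% of all genes.

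Usp18 (chr6:121245906-121270917) had a lowest, median and highest value of 29.5, 87.7 and 204 in the 12 siAcly libraries, against 12.4, 34.9 and 51.4 in the 12 siC libraries. It averaged 85.5 ± 47.2 in siAcly and 34.3 ± 12.2 in siC cells (SD, n = 12 each), and rose by 1.20 (SE 0.27, adjusted p = 0.0146, limma). The ranges overlapped, with siAcly SB library 85 the highest and siC HC library 82 the lowest. Oasl2 was 34.7, 68.4 and 195 (lowest, median, highest) in siAcly libraries, against 14.1, 35.9 and 62.9 in siC libraries, and rose by 1.07 (SE 0.29, adjusted p = 0.0396). Oasl1 was 48.0, 76.6 and 124 in siAcly libraries, against 35.8, 47.9 and 79.9 in siC libraries, and rose by 0.64 (SE 0.17, adjusted p = 0.0357). Both genes also overlapped between the arms.

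Some further antiviral members had differences of like size that missed the limit. Oas3 averaged 85.3 ± 85.7 in siAcly and 30.1 ± 13.8 in siC cells (1.1, adjusted p = 0.104), with 327 in siAcly SB library 85. Oas1a averaged 133 ± 67.2 in siAcly and 71.1 ± 21.8 in siC cells (0.78, adjusted p = 0.0682), and Isg15 130.0 ± 58.3 in siAcly and 75.9 ± 23.6 in siC cells (0.73, adjusted p = 0.0683). None of the transcription factors was called. Stat2 averaged 547 ± 80.2 in siAcly and 619.9 ± 93.0 in siC cells (-0.18, adjusted p = 0.235), and Irf9 (0.20), Irf7 (0.23) and Irf1 (-0.04) had adjusted p-values of 0.439, 0.571 and 0.922.

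**Figure D3:**
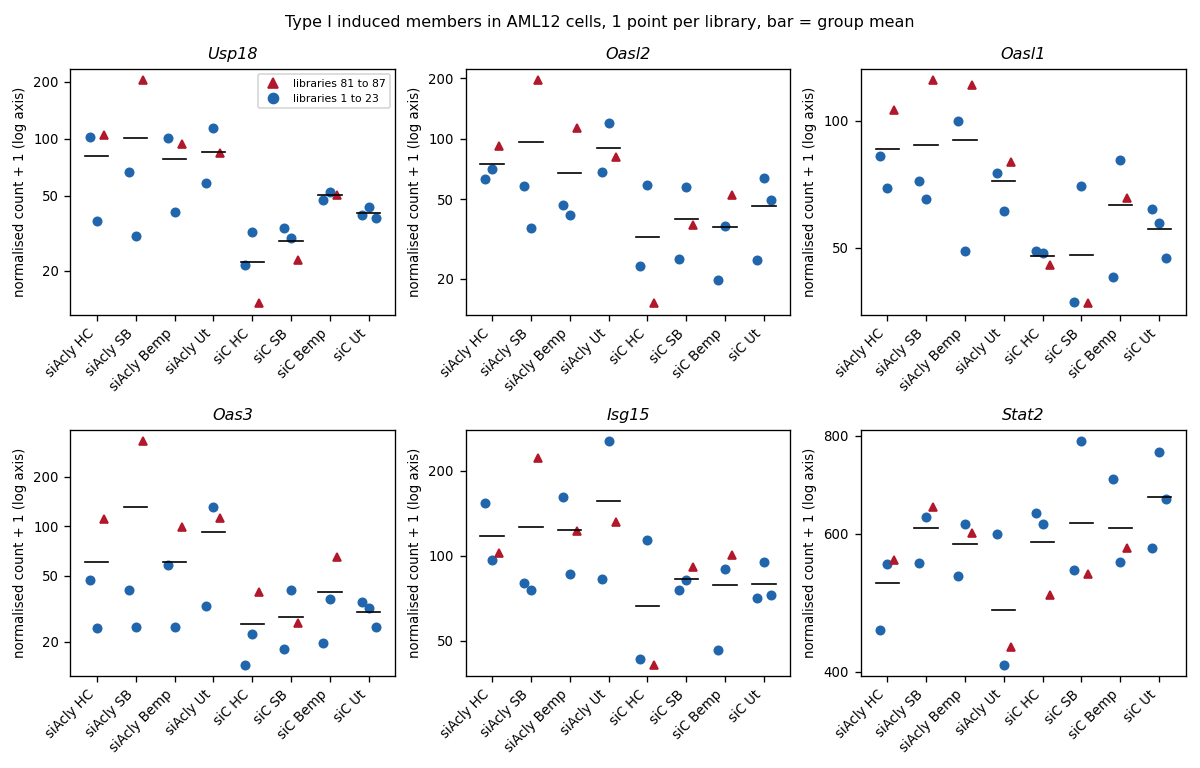
Normalised counts plus 1 (log axis, bar for the group mean) of Usp18, Oasl2, Oasl1, Oas3, Isg15 and Stat2 in the 24 AML12 libraries by siRNA and treatment, 1 point per library, triangles for libraries numbered 81 to 87 and circles for those numbered 1 to 23. Usp18 was 29.5 to 204 in siAcly and 12.4 to 51.4 in siC libraries, and the siAcly SB triangle is library 85.

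The libraries of AML12 cells carry 2 series of numbers, 1 to 23 and 81 to 87, and every group except siC Ut has 1 library of the second series. What the series stand for is not given in the labels. With the siRNA and treatment groups in the fit, libraries 81 to 87 had 3 members higher and 9 lower than libraries 1 to 23, beside 17.1% of all genes higher and 18.9% lower. The higher ones were Rsad2 (1.67, adjusted p = 0.0454), Oas3 (1.37, 0.00309) and Oas1a (0.75, 0.0131). The lower ones were led by Mx1 (-1.68, 0.00101), Ifit1 (-1.21, 0.0210), Gbp6 (-0.87), Gbp2 (-0.71) and Psmb9 (-0.70), and the other 4 were Tap2 (-0.67), Psmb8 (-0.58), Irgm1 (-0.29) and Parp9 (-0.27, 0.0497). The 9 lower members, of 43 tested, are near the share of all genes that were lower. Medians were -0.33 over the gamma induced members, 0.13 over the type I members and -0.0011 over all genes. Oas3 averaged 162 ± 110.5 in the 4 siAcly libraries 84 to 87 and 46.9 ± 35.7 in the 8 other siAcly libraries.

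The siRNA comparison was then made within each series, an alternative chosen after seeing the data. In libraries 81 to 87 alone (4 siAcly, 3 siC, treatments pooled), 18 of 41 tested members were higher in siAcly cells and 0 lower, beside 8.76% of all genes that were higher. Usp18 was 83, 204, 103.6 and 92.4 in the siAcly libraries 84 to 87, against 21.7, 12.4 and 49.4 in the siC libraries 81 to 83, without overlap (2.20, adjusted p = 0.000894). Oasl2 (1.88, 0.00219), Oas3 (1.81, 0.00289), Gbp7 (1.43, 0.0102) and Xaf1 (1.32, 0.00551) followed. In libraries 1 to 23 alone (8 siAcly, 9 siC), 0 members rose and 1, Parp14, fell (-0.47, adjusted p = 0.0492), beside 4.72% of all genes that fell, and Usp18 differed by 0.78 (adjusted p = 0.0777). With the number series as a covariate 10 members rose, beside 6.1% of all genes, namely Oas1a, Oas3, Oasl1, Oasl2, Isg15, Usp18, Ifi35, Ifi27, Xaf1 and Tap1. The difference between the siRNA arms in their series effect was tested directly, and 0 members passed the adjusted limit of limma, while 8 had an unadjusted p under 0.05, beside 19.5% of all genes.

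Leaving out 1 AML12 library at a time gave 1 to 9 called members for siAcly against siC. There was 1 called member, Usp18 being called in each of these cases, without library 4, 7, 10, 13, 19, 22, 81, 84, 85, 86 or 87, and there were 2 without library 1, 2, 11, 15 or 20. The count was 5 without library 23 or 82, 6 without library 83 and 9 without library 14. The labels of siC Bemp library 11, whose Acly was low, and siC Ut library 13 (Acly 3263) were taken as uncertain but kept. Library 13 is part of the siC Ut reference for siAcly Ut and for each inhibitor in siC cells. Without libraries 11 and 13 together, Usp18 alone was called (1.19, adjusted p = 0.0400).

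**Figure D4:**
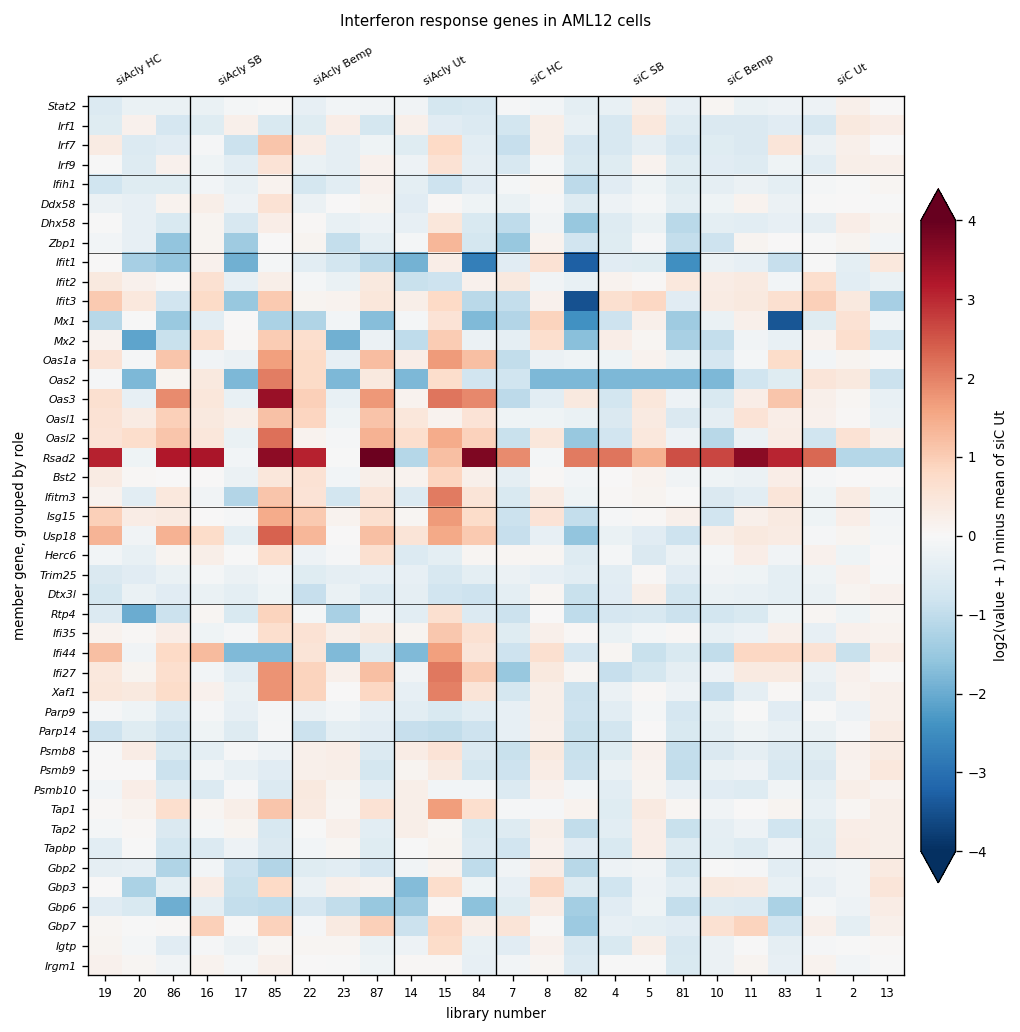
Heat map of the 45 members by role (down) in the 24 AML12 libraries (across, by group and library number), as log2(value + 1) minus the mean of the siC Ut libraries, with colours clipped at ±4. Library 85 of siAcly SB was the highest of the table in 11 members, library 15 of siAcly Ut in 14, and library 82 of siC HC the lowest in 12.

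In untreated cells alone, siAcly Ut against siC Ut, 18 members were higher and 25 lower (median -0.08), and 0 passed the adjusted limit of limma. Of all 12296 genes, 17 rose and 6 fell by that limit. At an unadjusted p under 0.05 there were 10 members, beside 19% of all genes. Parp14 had the smallest adjusted p (-0.91, 0.0923). The median was -0.29 without library 15 and 0.10 without library 84. Among the abundant members, Trim25 was 1394, 1452 and 1183 in siAcly Ut libraries, against 1624, 2082 and 1822 in siC Ut libraries, all lower in siAcly (-0.45, adjusted p = 0.128). Bst2, a protein that tethers virus particles, was 1595, 1521 and 2552 in siAcly Ut libraries, against 1353, 1416 and 1412 in siC Ut libraries, all higher in siAcly (0.40, adjusted p = 0.308), and Tapbp differed by -0.14 (adjusted p = 0.803).

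Of the other pathway genes in siAcly against siC cells over the 4 treatments, 2 of 13 MHC class I genes rose, H2-D1 (0.45, adjusted p = 0.00531) and H2-K1 (0.39, adjusted p = 0.0115), the classical heavy chains that present peptides. Their sequences are alike, so reads can be split between them. Of 13 genes listed as negative regulators, the phosphatase Ptpn6 (0.56, adjusted p = 0.000681) and Isg20 (0.64, adjusted p = 0.00637), itself an antiviral exonuclease, rose. Of 11 receptors and kinases, Ifngr1 rose (0.22, adjusted p = 0.0479), and of 14 sensors and adaptors and 45 other interferon induced genes 1 rose in each list, while no gene of these lists fell. List medians were 0.19, 0.03, -0.07, -0.03 and 0.16, and 2.73% of all genes rose. With each of the 24 libraries left out, H2-D1, H2-K1, Ptpn6 and Isg20 were called in 24 fits and Ifngr1 in 5.

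No member changed detectably with the 3 inhibitors, and none of the 12296 genes tested was called in these comparisons of 3 libraries a group. The doses of the inhibitors differ, so values are set side by side, and the comparisons of each siRNA share its Ut libraries. In siC cells, 41 of 43 members were lower with HC (median -0.34), 37 with SB (-0.31) and 32 with Bemp (-0.20). None passed the adjusted limit of limma, and members with an unadjusted p under 0.05 numbered 2 for HC (beside 0.342% of all genes), 0 for SB (0.569%) and 1 for Bemp (1.95%). In siAcly cells, 30 members were lower with HC (median -0.15), 22 with SB (-0.02) and 24 with Bemp (-0.04), with 0 called and 2 (beside 2.2%), 4 (13.4%) and 0 (2.55%) at an unadjusted p under 0.05. Each inhibitor group holds 1 library of the series 81 to 87 and siC Ut none, and libraries 82 and 81 were the lowest of siC HC and siC SB in median, so treatment and series are partly confounded in siC cells. With the series as a covariate the siC medians were -0.30 for HC, -0.24 for SB and -0.19 for Bemp. They were -0.15 without library 82 for HC, -0.17 without library 81 for SB and -0.28 without library 11 for Bemp, and -0.22 for Bemp without libraries 11 and 13. Without library 15 the siAcly medians were 0.07 for HC, 0.22 for SB and 0.12 for Bemp. Over these 6 comparisons the abundant members Tapbp, Trim25 and Bst2 had differences between -0.37 and 0.31. Usp18 was 20.4, 31.0 and 12.4 in siC HC libraries, against 38.3, 42.4 and 37.2 in siC Ut libraries, all lower with HC and not called.

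Effects in siAcly cells minus those in siC cells had a median over the members of 0.26 for HC. The SB effect gave 0.25 and the Bemp effect 0.23 (0.24 without libraries 11 and 13, and 0.05 without library 84). No member and no other gene was called by limma for these effects. At an unadjusted p under 0.05 there were 0 members for HC, beside 0.512% of all genes, 6 for SB, beside 8.44%, and 0 for Bemp, beside 1.35%. The 6 for SB were all positive and included Parp14 (1.1, adjusted p = 0.56) and Trim25 (0.58, adjusted p = 0.56). Tapbp differed by 0.11, -0.02 and 0.33 and Bst2 by -0.12, -0.33 and -0.13, in the order HC, SB, Bemp.

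In livers of mice fed HC for months, no member and no other gene was called. Of 44 tested members, 34 were higher in HC than in Ut livers and 10 lower (median 0.10, type I 0.14, gamma induced 0.03), and 0 passed the adjusted limit of limma or an unadjusted p of 0.05, which 4.24% of all 11497 genes did. Ifitm3, which keeps viruses from fusing with endosomes, was 2384, 2061, 2435, 1833 and 2430.3 in HC livers, against 2115, 1990.3, 2841, 2079 and 1714 in Ut livers (0.06, SE 0.13, adjusted p = 0.995). The groups overlapped, as they did for Trim25 (0.09) and Ifi27 (-0.05). Rsad2, the enzyme viperin, was 240.3, 149, 133, 199 and 144 in HC livers, against 228, 154, 244, 248 and 38.3 in Ut livers (0.14, adjusted p = 0.995), the last value being that of Ut library 5.

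Ut library 5 was the lowest of its group in 32 of 45 members and the lowest liver library in 27. Its fast muscle marker sum was 979, with all 10 markers detected, against 0 to 1.97 in the HC livers. Without it 21 members were higher and 23 lower (median -0.01). The share of muscle in that library's values of the members was not tested.

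In soleus, 17 of 37 tested members were higher in HC than in Ut muscle and 20 lower (median -0.01). No member and no other gene passed the adjusted limit of limma. At an unadjusted p under 0.05 there were 3 members, beside 5.05% of all 12067 genes. Stat2 was 67.6, 71.6, 68.7, 86.6 and 84.7 in HC soleus, against 62.7, 62.1, 39.6, 66.3 and 54.3 in Ut soleus, without overlap (0.42, SE 0.16, adjusted p = 0.915). Ifit1, which binds viral RNA, was 25.5, 18.4, 33.0, 24.4 and 20.5 in HC soleus, against 17.9, 17.1, 15.9, 17.5 and 13.4 in Ut soleus, also without overlap (0.53, SE 0.20, adjusted p = 0.951). The third was Ifitm3 (0.25, adjusted p = 0.972). Gbp6, the most abundant member of soleus, was 2872 to 3280.2 in HC and 2363 to 4192 in Ut muscle (-0.0023, SE 0.12), and Tapbp differed by 0.02 (SE 0.10).

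**Figure D5:**
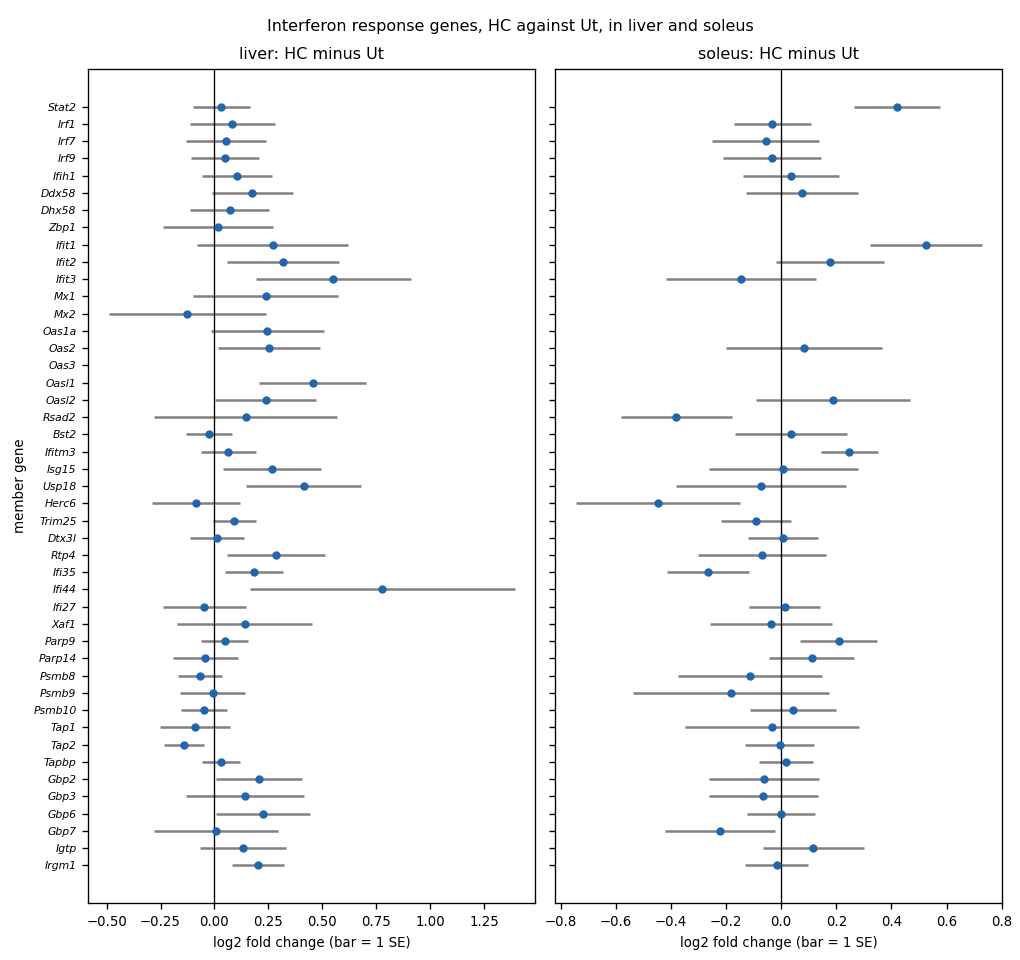
Log2 differences (HC minus Ut, x axis, bars of 1 SE) of the tested members in liver and soleus, ordered by role (y axis), from limma. No member and no other gene passed the adjusted limit in either tissue, and the members spread around medians of 0.10 in liver and -0.01 in soleus.

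No gene of the 6 other pathway lists was called in liver or soleus, where 0 of 11497 and 0 of 12067 tested genes were called. The authors report Gvin1, an interferon inducible pseudogene on these lists, among the over-expressed genes of HC soleus, by their own limits on p and fold change. The 53 other interferon induced genes tested in liver had a median of 0.12, with 40 higher and 13 lower, and the 43 tested in soleus had 0.03, with 24 higher and 19 lower. Tables were normalised separately, and the labels of liver and soleus name another kit than the authors' text does. Levels were therefore not compared between tables.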

How the data were processed

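RNA was sequenced from AML12 cells, liver, soleus and gastrocnemius. The build is mm10. The authors describe a STAR-based aligner and median-of-ratios scaling, with no split by tissue. Their text names an mRNA kit, and the labels of liver and soleus an rRNA depletion kit. What was deposited is this normalised signal (gene counts after scaling), 1 table for each source, and raw counts were not used here. Of values under 50, 5.21% to 35.55% of a library were whole (tolerance 0.01) after division by the commonest value under 2, taken as 1 read, so reads could not be recovered, count tests were not run and depth is an estimate.

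The tests used log2(value + 1). Genes that reached 10 in at least the number of libraries of the smallest group were fitted with limma 3.58.1 in R 4.3.3 (all groups of a table together, variance trend), with Benjamini-Hochberg adjustment over all tested genes and a limit of 0.05. The procedure was tested on simulated data. Named genes were the 5 largest rises and falls among called members, the most abundant called member of a role, or, with none called, the 3 most abundant members, and the transcription factors. Of the other pathway lists, the called genes of largest change were named. In comparisons where the rule did not pick them, Mx1, Isg15, Oas1a, Oas3, Usp18, Igtp, Gbp2, Gbp6, Rsad2, Ifit1 and other members were named after their values were seen. Members and gene lists were chosen with earlier results of these data known. Libraries were grouped by their labels. Alternatives were pseudocounts of 0.5 and 5, no limit on low values, quantile normalization, the library number series as a covariate, fits of only the groups compared, a replicate block, no variance trend and leaving out each library. Leaving out libraries 57 and 62 or 11 and 13 and fits within a number series were chosen after seeing the data.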

Additional observations from a re-analysis of the deposited data

Results flagged for a closer look

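In liver and soleus, the only groups of more than 3 libraries, the named members and the sums of macrophage and fast muscle fibre markers were examined for a library far from the others of its group. Of 26 such sets of 5 libraries 1 held one, and chance alone gives about 1 in 20. In liver Ut, the sum of fast muscle fibre markers was 979 in library 5 and 0 to 1.85 in the other libraries, a gap of 0.998 of the range of the group. Ut library 5 was the lowest of its group in 32 of 45 members, and the part of muscle in this was not tested.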

How the results depend on the processing

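The count of called members was within 1.5 times of its value in 323 of 366 recomputed cases. That number includes every case that stayed at 0, as most comparisons did, so it says little about comparisons with called members. In comparisons with 0 called members the count stayed at 0 except for CTX 30 DPI against CTX 2 DPI. For siAcly against siC (3 called) it was 1 with no limit on low values, 10 with the number series as a covariate, 1 without libraries 11 and 13, 18 in libraries 81 to 87, 1 in libraries 1 to 23, and 1 to 9 with each library left out. For CTX-HC 2 DPI against C (5 called) it was 8 with a pseudocount of 5, 3 with no limit, 8 with quantile normalization, 0 with the number series as a covariate, 34 with only the 2 groups (fewer samples), 21 without libraries 57 and 62, and 0 to 4 with each library left out. For CTX-HC 30 DPI against CTX-HC 2 DPI (7 called) it was 4 with no limit, 14 with quantile normalization, 0 with only the 2 groups, 26 without libraries 57 and 62, and 0 to 26 with each left out. For CTX 30 DPI against CTX 2 DPI (0 called) it was 5 without libraries 57 and 62 and 0 to 3 with each left out. The cause of these shifts was not tested. With the replicate block the count was 0 in liver and 0 in soleus, as without it; same-numbered libraries deviated together with a correlation of 0.02 to 0.08 in liver and -0.11 to 0.40 in soleus, so the numbers were not taken as pairs. No called gene changed sign under any alternative run. Signs that turned belong to genes that were not called. With quantile normalization these were Bst2 in siC SB against siC Ut (-0.025), Tapbp in the SB effect (0.10) and Gbp6 in soleus (0.013), and with the number series as a covariate Bst2 in siC SB against siC Ut (-0.0082), Parp14 in CTX-HC 30 DPI against C (-0.18) and in CTX 30 DPI against CTX 2 DPI (0.21), and Trim25 in CTX-HC 30 DPI against CTX 30 DPI (-0.16). Within a series of siAcly and siC libraries, Stat2 was 0.044 in libraries 81 to 87 and Irf1 0.10 in libraries 1 to 23. Without libraries 11 and 13, Bst2 was 0.070 in siC Bemp against siC Ut and Tapbp -0.0071 in the HC effect. Without libraries 57 and 62, Tapbp was -0.17 and Parp14 -0.47 in CTX-HC 30 DPI against C, and Trim25 -0.31 in CTX-HC 30 DPI against CTX 30 DPI. Leaving out each library gave these ranges across 0. In AML12 cells they were -0.41 to 0.055 for Tapbp in siAcly Ut against siC Ut, -0.12 to 0.044 for Irf1 in siAcly against siC, -0.065 to 0.086 for Bst2 with SB and -0.19 to 0.061 with Bemp in siC cells. In siAcly cells they were -0.071 to 0.087 for Trim25 with HC, and with Bemp -0.24 to 0.12 for Tapbp, -0.029 to 0.12 for Trim25 and -0.33 to 0.077 for Bst2. Between siRNA arms they were -0.10 to 0.38 for Tapbp and -0.26 to 0.12 for Bst2 in the HC effect, -0.21 to 0.26 for Tapbp in the SB effect and -0.30 to 0.11 for Bst2 in the Bemp effect. In liver they were -0.012 to 0.17 for Ifitm3, -0.17 to 0.14 for Ifi27, -0.099 to 0.17 for Irf7 and -0.35 to 0.32 for Rsad2, and in soleus -0.092 to 0.11 for Gbp6 and -0.035 to 0.074 for Tapbp. In gastrocnemius Parp14 ranged over -0.060 to 0.96 in CTX 2 DPI against C and -0.76 to 0.46 in CTX 30 DPI against CTX 2 DPI. In CTX 30 DPI against C the ranges were -0.33 to 0.88 for Parp14, -0.38 to 0.17 for Trim25 and -0.20 to 1.79 for Gbp2. In CTX-HC 30 DPI against C they were -0.17 to 0.46 for Tapbp, -0.47 to 0.62 for Parp14 and -0.41 to 0.27 for Trim25. In CTX-HC 30 DPI against CTX 30 DPI they were -0.53 to 0.15 for Tapbp, -0.75 to 0.51 for Parp14, -0.31 to 0.36 for Trim25 and -1.64 to 0.36 for Gbp2. Depth is only estimated here, and genes under 10 in all but a few libraries were not tested.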

Other observations

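Irf1, the gamma induced transcription factor, fell into separate sets of values in AML12 cells across siRNA and treatment, a pattern seen only after its values were examined. It was 1808 in siAcly Ut library 14, 1746 in siAcly HC library 20, 1808 in siAcly SB library 17 and 1879 in siAcly Bemp library 23, and 2029 and 1894 in siC Ut libraries 2 and 13, 1847 in siC HC library 8 and 2090 in siC SB library 5. In every other AML12 library Irf1 was 942 to 1266. The libraries labelled siC Bemp, at 1037, 1047 and 1147, had none in the upper set, nor did libraries 81 to 87. The siC Bemp group includes library 11, whose Acly of 404 lay inside the siAcly range, and the labels of libraries 11 and 13 are uncertain. The absence from the upper set can therefore not be tied to Bemp. Hepatocyte markers summed to 43529 in library 11 and 27468 in library 13. Tapbp, the chaperone that loads peptides on class I molecules, was 2691 to 3789 in the same 8 libraries and 1796 to 3336 in the others. The summed hepatocyte markers were 16811 to 27468 in these 8 libraries, 37205 to 50426 in libraries 1, 4, 7, 10, 11, 16, 19 and 22, 16242 in library 15 and 13030 to 18248 in libraries 81 to 87. Their part in the values of the members was not tested, and no fit held these sets as a term. No test was run on these sets, because they were defined by the values.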
